A study of Mus musculus with 6 samples.

Results

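The LDL receptor family endocytic receptors are cell surface proteins that bind lipoproteins, hormone carriers, protease complexes and signalling proteins and carry them into the cell. The genes described here are 10 of the 51912 in the table: Lrp1, Lrp2, Lrp4, Lrp8, Lrp10, Lrp11, Lrp12, Vldlr, Sorl1 and Cubn, found by their gene symbols. They were measured by mRNA sequencing in 6 libraries of the established mouse embryonic stem cell line R1. All cells had been kept in 2iLIF, which holds the naive state through inhibitors of MEK and GSK3 and the cytokine LIF, and were then moved to serum-free N2B27 medium that held 100 ng/ml FGF2. The groups are FGF2 for 24 h and FGF2 for 48 h, with 3 libraries each. Nothing in the labels tells whether replicates came from separate cultures, so the spread between them may be technical. Cells without FGF2 were not analysed here, and FGF2, the change of medium and time in culture cannot be told apart.

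Receptors of this family share small cysteine-rich ligand-binding repeats, and most of the large ones carry short tail motifs that adaptor proteins use to bring them into clathrin-coated pits. Newly made receptors are held free of ligands by the chaperone encoded by Lrpap1, and in the acid endosome they release their cargo and return to the surface. Lrp2 (megalin) is known from absorptive epithelia, visceral endoderm and the early neural epithelium. In absorptive epithelia and visceral endoderm it takes up nutrients and carriers together with Cubn (cubilin). Cubn is a large peripheral protein that is not itself of the family and needs the product of Amn to reach the membrane.

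The libraries held between 19574969 and 23133148 estimated counts. Each pair of replicates differed by more than counting noise, with a chi-square per degree of freedom between 1.82 and 2.22. All 6 were therefore counted as separate libraries, but this spread does not tell whether they came from separate cultures. Levels are given as CPM, the counts of a gene relative to all counts of a library, with library totals scaled by TMM, a method that centres the bulk of genes. Of the 14889 genes with enough counts to be tested with edgeR's quasi-likelihood test, 62.8% passed an adjusted p under 0.05, and 30.9% of all tested genes were higher and 31.9% lower at 48 h. Markers of pluripotent cells summed to between 4094 and 4193 CPM at 24 h and between 3954 and 4018 CPM at 48 h, but single genes moved far. Of the 10, 4 were higher, 6 lower and 8 changed at least 2-fold. Nanog and Klf4, genes of the naive state, went from 694.7 to 174.4 and from 119.2 to 26.5 CPM. Fgf5 and Dnmt3b, genes of the formative and primed states, went from 2.25 to 55.1 and from 137 to 1390.5 CPM, while Pou5f1 stood at 1111 and 1058 CPM.

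The set was chosen by the measured change of Lrp2 between 24 h and 48 h, which earlier results of these data placed among the surest increases, and its relatives and partner were added for comparison. The change of every member between 24 h and 48 h is therefore given as a description. Where a member is said to be called, it passed an adjusted p under 0.05 in the fit over all genes, and nothing is supported by that call. All 10 members passed the filter on low counts, Cubn through its 48 h libraries alone, and all had whole-number counts in each library (to within 1e-09). In the fit over all genes, 3 members were called higher at 48 h and 4 lower, beside 30.9% and 31.9% of all tested genes. A change that was called and at least 2-fold was found for 2 members (Lrp2 and Sorl1), beside 11.2% of all tested genes. Values of the 2 times did not overlap for 8 members, beside 66.9% of all tested genes. The median log2 fold change of the members was -0.09, against -0.01 for all genes.

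Lrp2 (ENSMUSG00000027070), the megalin gene on the minus strand at chr2:69424340-69586065 of GRCm38, increased more than any other member. Its level was 74.3, 72.1 and 64.7 CPM in the 24 h libraries and 361.4, 379.5 and 361.1 CPM in the 48 h libraries. Every 48 h library lay far above every 24 h library. In bulk RNA, more cells of a type and more RNA per cell cannot be told apart. The mean was 70.4 ± 5.01 CPM at 24 h and 367.3 ± 10.5 CPM at 48 h (SD, n = 3). On the log2 scale the change was 2.39 ± 0.04 (standard error), or 5.24-fold. These values rest on 1476 to 1527 counts at 24 h and 7853 to 8302 counts at 48 h.

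Cubn (ENSMUSG00000026726), the partner of megalin in uptake, lies on the minus strand at chr2:13276338-13491813. It was near the limit of detection, with 10, 9 and 8 counts at 24 h and 13, 20 and 20 counts at 48 h. In CPM these are 0.501, 0.439 and 0.339, then 0.598, 0.914 and 0.902. The groups do not overlap, but they differ by few reads. On the log2 scale the change was 0.92 ± 0.35 (standard error), and its call was lost in 7 of 14 alternatives. Among these, the change was 0.95 when 24 h replicate 2 was left out, 0.77 when it was 24 h replicate 3, 0.82 for 48 h replicate 2 and 0.83 for 48 h replicate 3. Exons of Cubn overlap those of Gm13270 on the other strand in GENCODE M21 by 368 bases, and the use of strand in counting is not stated.

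The bases just before the start sites are shown for the 4 members with the largest fold changes, since their levels differ most between the times. RefSeq starts on GRCm38.p6 matched 8 of the 10 members (12 starts). Lrp4 and Lrp12 had no entry. The first RefSeq start is the same as the GENCODE M21 start of the gene for Sorl1, lies 36 bases inside the GENCODE gene for Lrp2 and 624 bases inside it for Lrp8, and lies outside it for Cubn. Each line gives the 250 bases before the first RefSeq start, 5′ to 3′ on the gene's strand, with matches to the searched motifs in capitals. The lines cover chr2:69586030-69586279 (minus strand) for Lrp2, chr9:42124298-42124547 (minus) for Sorl1, chr2:13491877-13492126 (minus) for Cubn and chr4:107802635-107802884 (plus) for Lrp8.
Lrp2: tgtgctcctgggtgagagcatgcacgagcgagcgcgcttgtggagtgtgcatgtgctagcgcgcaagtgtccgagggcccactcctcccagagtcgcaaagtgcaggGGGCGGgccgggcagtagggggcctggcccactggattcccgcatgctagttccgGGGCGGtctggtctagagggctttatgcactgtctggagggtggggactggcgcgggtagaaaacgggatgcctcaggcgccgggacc
Sorl1: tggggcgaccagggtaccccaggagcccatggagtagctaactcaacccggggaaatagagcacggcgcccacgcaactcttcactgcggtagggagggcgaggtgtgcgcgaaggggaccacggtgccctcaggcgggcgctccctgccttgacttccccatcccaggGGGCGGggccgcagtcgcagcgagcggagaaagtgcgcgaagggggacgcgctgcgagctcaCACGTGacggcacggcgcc
Cubn: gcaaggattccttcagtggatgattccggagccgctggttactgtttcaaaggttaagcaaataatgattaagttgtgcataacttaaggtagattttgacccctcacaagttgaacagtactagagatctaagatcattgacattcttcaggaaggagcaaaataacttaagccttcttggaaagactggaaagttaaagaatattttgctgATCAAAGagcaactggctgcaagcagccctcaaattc
Lrp8: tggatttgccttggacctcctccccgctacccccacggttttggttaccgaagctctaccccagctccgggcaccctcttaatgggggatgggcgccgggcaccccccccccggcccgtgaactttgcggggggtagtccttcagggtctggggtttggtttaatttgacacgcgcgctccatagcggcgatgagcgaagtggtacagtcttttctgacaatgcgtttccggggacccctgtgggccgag

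The motifs searched on both strands were the GC box GGGCGG, the E-box CACGTG, the TATA box TATAAA, the CCAAT box CCAAT, the ETS core CCGGAAG and the TCF/LEF core CTTTGAT. The GC box occurred 2 times before Lrp2, beginning 143 and 88 bases before the start, and 1 time before Sorl1, at 81 bases. Of 32851 mouse promoters of the same length, 32.7% held it. Sorl1 also held the E-box 19 bases before its start, as 6.02% of promoters did. Cubn held the TCF/LEF core 37 bases before its start, as did 3.21% of promoters. The window before Lrp8 held none of these letters.

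Base composition set the Cubn start apart from the others shown. GC content was 66.4% before Lrp2, 69.6% before Sorl1 and 62.4% before Lrp8, with 18, 26 and 18 CpG pairs. Before Cubn it was 39.6% with 2 CpG pairs. The medians over all promoters were 52.4% and 6 pairs. Among members with small changes, GC content was 67.2% before Lrp1, 68.4% before Lrp11 and 55.6% before Lrp10. Vldlr had 41.6% before its first start and 66.4% before its other start. These are descriptions of sequence and were not set against expression by a test.

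**Figure D1:**
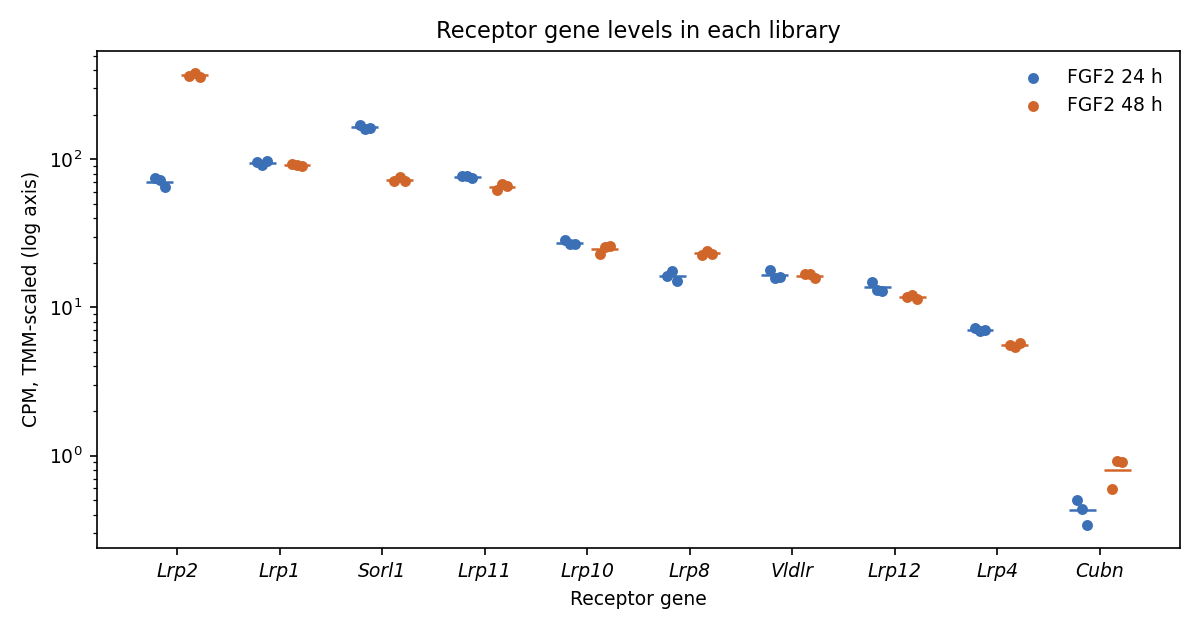
CPM of each receptor gene (log axis) in the 3 libraries of FGF2 24 h and the 3 of FGF2 48 h, with the mean as a short line. Lrp2 lies near 70.4 CPM at 24 h and 367.3 CPM at 48 h, Sorl1 goes the other way, and Cubn is below 1 CPM in every library.

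Lrp8 and Vldlr encode the receptors of reelin, a secreted protein that guides neuron migration, and both also bind apolipoprotein E. Their values parted. Lrp8 (ENSMUSG00000028613, chr4:107802261-107876840, plus strand) was at 16.2, 17.7 and 15.002 CPM at 24 h and at 22.4, 24.0 and 23.0 CPM at 48 h. All 48 h libraries were above all 24 h libraries, and the log2 difference was 0.51 ± 0.07 (standard error). Vldlr (ENSMUSG00000024924, chr19:27216484-27254231, plus strand) was at 17.9, 15.9 and 16.1 CPM and then at 16.7, 16.7 and 15.8 CPM. Those values overlap, and the log2 fold change of -0.02 ± 0.07 (standard error) became 0.04 when 24 h replicate 1 was left out and 0.01 when 48 h replicate 3 was. The ratio of Lrp8 to Vldlr counts went from 0.984 ± 0.113 to 1.41 ± 0.063 (SD, n = 3).

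Lrp1 and Lrp4 are the other large receptors of the set. Lrp1 (ENSMUSG00000040249, chr10:127538161-127621148, minus strand) clears protease complexes and lipoprotein remnants. It is close to Lrp2 in size. Its level was 95.7, 91.7 and 97.0 CPM at 24 h and 92.8, 92.1 and 90.5 CPM at 48 h, so the groups overlap. The log2 fold change was -0.05 ± 0.03 (standard error), and with library size as the only scaling it was -0.11 and called. Lrp4 (ENSMUSG00000027253, chr2:91457511-91513779, plus strand) is the agrin receptor of the nerve-muscle synapse and also binds inhibitors of WNT signalling. It was at 7.21, 6.98 and 7.08 CPM and then at 5.57, 5.44 and 5.73 CPM. Every 48 h value was lower, with a log2 fold change of -0.35 ± 0.10 (standard error), and the call was lost with DESeq2.

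Sorl1 (ENSMUSG00000049313, chr9:41964720-42124297, minus strand) joins LDL receptor repeats to a VPS10 domain and sorts cargo such as the amyloid precursor protein between the Golgi and endosomes. It had the largest decrease of the set. Its level was 169.3, 160.9 and 162.1 CPM at 24 h and 70.8, 75.6 and 71.5 CPM at 48 h. The groups are well apart. The mean was 164.1 ± 4.50 CPM at 24 h and 72.6 ± 2.62 CPM at 48 h (SD, n = 3). The difference was -1.18 ± 0.03 on the log2 scale (standard error). Exons of Sorl1 overlap those of Gm16214 on the other strand by 185 bases.

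Lrp10, Lrp11 and Lrp12 are smaller and less studied, and each was slightly lower at 48 h. Lrp11 (ENSMUSG00000019796, chr10:7589800-7625483, plus strand) was at 76.7, 77.1 and 74.1 CPM and then at 61.5, 68.2 and 66.0 CPM, without overlap (log2 fold change -0.22 ± 0.04, standard error). Lrp12 (ENSMUSG00000022305, chr15:39870589-39943994, minus strand) was at 14.8, 13.1 and 12.97 CPM and then at 11.7, 12.1 and 11.5 CPM, again without overlap. The log2 fold change of Lrp12 was -0.21 ± 0.08 (standard error), and its call was lost with DESeq2 and on leaving out 24 h replicate 1 (-0.15), 48 h replicate 1 (-0.20) or 48 h replicate 3 (-0.19). Lrp10 (ENSMUSG00000022175, chr14:54464137-54471497, plus strand), a receptor that moves between the Golgi and endosomes, was at 28.4, 26.6 and 26.8 CPM and then at 22.8, 25.7 and 25.9 CPM. It was not called (log2 fold change -0.14 ± 0.06, standard error), though its groups do not overlap, and it was called without replicate 3 of 48 h (-0.17) and in the fits with library size as the only scaling and with at least 10 counts in every library. Exons of Lrp10 overlap those of Gm10366 on the other strand by 475 bases.

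**Figure D2:**
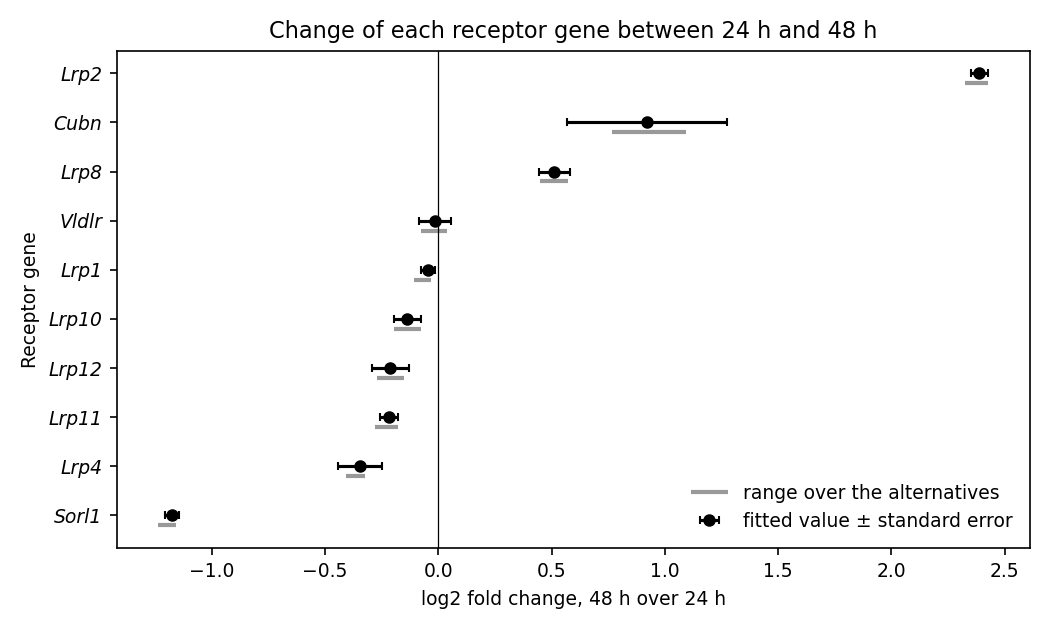
Fitted log2 fold change of each receptor gene, 48 h over 24 h, with its standard error, and below each the range over the alternative fits as a grey line. Lrp2 at 2.39 and Sorl1 at -1.18 stand at the ends, while 6 members lie between -0.35 and -0.02.

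The shares of Lrp2 and Sorl1 in the reads of the set went in opposite directions. Summed over the 10 genes, the level was 500.8, 482.5 and 476.2 CPM at 24 h and 666.4, 700.3 and 671.9 CPM at 48 h. Lrp2 held 14.5% ± 0.75 of these reads at 24 h and 54.1% ± 0.27 at 48 h (SD, n = 3), and Sorl1 held 33.7% ± 0.35 and 10.7% ± 0.098. Without Lrp2 the sum went down, from 416.1 ± 9.02 to 312.2 ± 8.06 CPM. Without Lrp2 and Sorl1 the other 8 genes summed to 252.02 ± 4.55 and 239.5 ± 5.54 CPM. The ratio of Lrp2 to Sorl1 counts was 0.429 ± 0.026 at 24 h and 5.06 ± 0.045 at 48 h. Long transcripts give more reads, so these shares describe reads and not molecules.

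**Figure D3:**
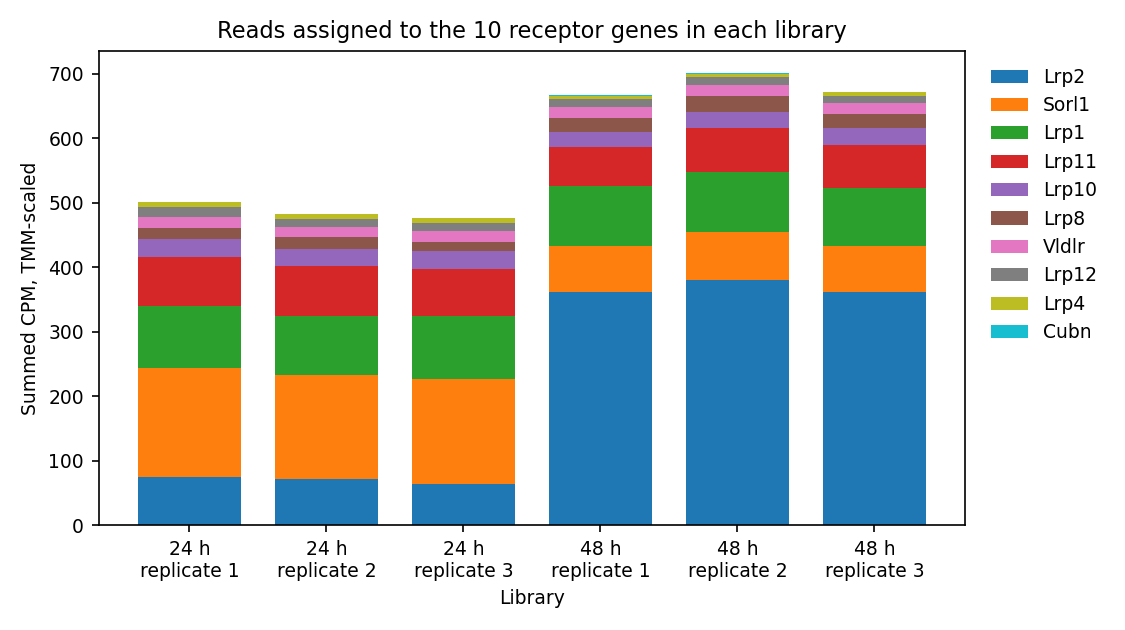
Summed CPM of the 10 receptor genes in each library, split by gene. The total goes from at most 500.8 CPM in the 24 h libraries to at least 666.4 CPM in the 48 h libraries, and the Lrp2 segment grows while the Sorl1 segment shrinks.

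Per length, Lrp2 moved from the middle of the set to its top. Levels were divided by the length of all exons of the gene in GENCODE M21 (CPM per kb). At 24 h the order was Lrp11 at 22.2, Sorl1 at 14.5, Lrp10 at 6.11, Lrp1 at 5.35, Lrp2 at 4.21, Lrp12 at 2.97, Vldlr at 1.65, Lrp8 at 1.55, Lrp4 at 0.675 and Cubn at 0.029 CPM per kb. Of these neighbours, Vldlr and Lrp8 alone overlapped between libraries. At 48 h Lrp2 led with 22.0 ± 0.63 (SD, n = 3), followed by Lrp11 at 19.1 ± 0.998, and these did not overlap. Then came Sorl1 at 6.42, Lrp10 at 5.55, Lrp1 at 5.18, Lrp12 at 2.56, Lrp8 at 2.20, Vldlr at 1.63, Lrp4 at 0.531 and Cubn at 0.054 CPM per kb, among which Lrp10 and Lrp1 overlapped. The order depends on the length used. With the longest coding length in place of exon length, Lrp2 was number 8 of 10 at 24 h and number 2 at 48 h, at 26.3 CPM per kb against 45.0 for Lrp11. Cubn stayed the lowest at both times with either length, so Lrp2 transcript was far more abundant than that of its uptake partner.

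**Figure D4:**
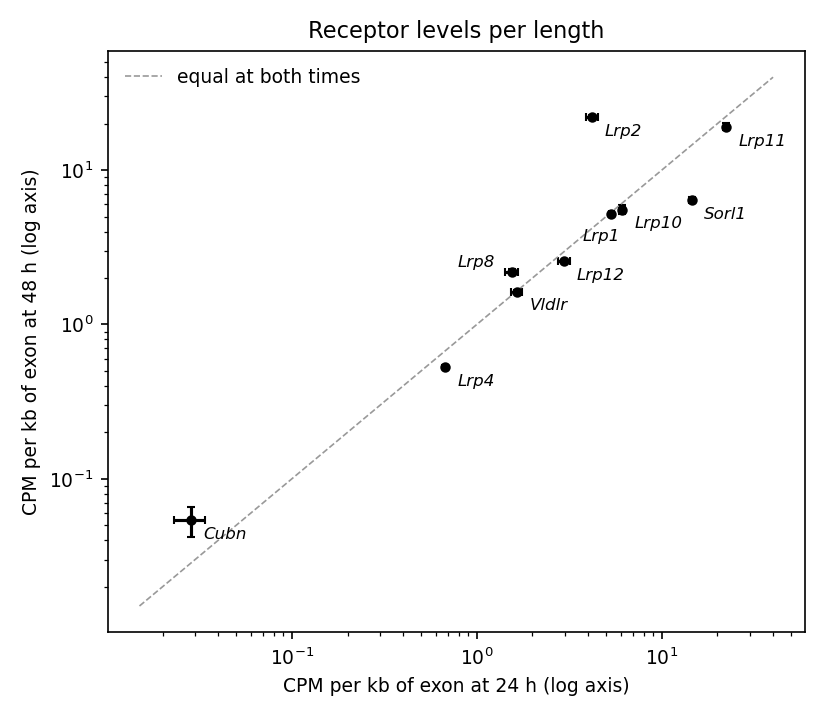
CPM per kb of exon of each receptor gene at 24 h (x axis) and 48 h (y axis), both on log axes, as mean and SD of 3 libraries, with the line of equal levels dashed. Lrp2 lies above the line at 4.21 and 22.0 and Sorl1 below it at 14.5 and 6.42.

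Among 10442 other genes that averaged 5 CPM or more, the patterns closest to that of Lrp2 over the 6 libraries were those of Efnb2, Ryr3, Jph4, Dtx4 and Trio. Likeness was the root mean square distance of log2 CPM centred on each gene's mean, and it was 0.065, 0.068, 0.086, 0.086 and 0.091 on the log2 scale. Efnb2, a ligand of Eph receptors, went from 39.6 to 195.8 CPM, and Trio, an exchange factor for small GTPases, from 19.6 to 114.7 CPM. Ryr3, Jph4 and Dtx4 had log2 fold changes of 2.37, 2.30 and 2.43. With 6 libraries in 2 groups, this distance mostly compares the size of the change.

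Lrp2 is known from visceral endoderm, as Cubn is, and from neural cells, so markers of both cell types were measured beside these genes. Of 12 primitive and visceral endoderm markers, 5 were tested, 0 were higher and 3 were lower at 48 h. Their summed level was between 51.1 and 57.9 CPM at 24 h and between 15.9 and 16.5 CPM at 48 h. Of the defining markers, Ttr was at 0 in all libraries, Afp averaged 0.016 and 0.046 CPM, and Lama1 made up most of the sum at 43.1 and 10.8 CPM. Of 10 neural progenitor markers, 7 were tested, 3 were higher and 3 lower, and they summed to between 132.1 and 140.7 CPM and then to between 147.8 and 160.03 CPM. Sox1 went from 14.7 to 36.6 CPM and Pax6 from 11.6 to 33.9 CPM, while Hes5, Neurog2 and Dcx averaged at most 0.091 CPM at either time. The part of either set in the changes of Lrp2 and Cubn was not tested. Trophoblast and fibroblast markers summed to at most 2.12 and 3.92 CPM in any library.

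The genes that work with these receptors were taken from 8 lists of 113 genes, of which 102 were tested. Of these, 25 rose and 59 fell, beside 30.9% and 31.9% of all tested genes, and the median log2 fold change was -0.14 against -0.01. With library size as the only scaling the split was 16 higher and 64 lower. Most of the changes were small, and 10 were called and at least 2-fold, beside 11.2% of all tested genes. Among them, Lrp1b, Reln and Rapsn passed the filter on low counts through their higher group alone.

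Other receptors of the LDL receptor family, and of the VPS10 family to which Sorl1 also belongs, rose in most cases in the fit over all genes. Of 14 listed, 10 were tested, 7 rose and 2 fell (median 0.22), beside 30.9% and 31.9% of all tested genes. A count of 7 rising receptors held in 10 of 16 alternatives, and 6 rose in 5 others. When libraries were scaled by their totals alone, 5 rose. Lrp1b, a close relative of Lrp1, went from 0.343 ± 0.095 to 1.201 ± 0.389 CPM (SD, n = 3), on 5 to 9 counts at 24 h and 20 to 36 counts at 48 h. It passed the filter on low counts through its 48 h libraries alone, and with at least 10 counts required in every library it was not tested. Sorcs2 and Lrp3 rose by 0.94 and 0.62 on the log2 scale, to 5.12 and 6.36 CPM. Ldlrad4 fell from 1.29 to 0.562 CPM (log2 fold change -1.19), and 2798 bases of its exons overlap Fam210a on the other strand. Of the WNT co-receptors, Lrp6 fell by 0.12 on the log2 scale (adjusted p = 0.000652), and Lrp5 was at 61.8 ± 1.301 and 60.99 ± 2.38 CPM (adjusted p = 0.71). The difference between Lrp2 and these receptors was not tested.

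Partners and chaperones mostly fell. Of 7 listed, 5 were tested, of which 1 rose and 4 fell (median -0.41), beside 30.9% and 31.9% of all tested genes. Lrpap1, the chaperone that escorts the receptors through the secretory route, was at 88.4, 88.7 and 94.4 CPM at 24 h and at 47.9, 44.5 and 47.7 CPM at 48 h. Its values were far apart, and Lrpap1 fell by 0.96 on the log2 scale (standard error 0.04; adjusted p = 2.07e-12), opposite in direction to Lrp2. Fcgrt, an albumin and IgG receptor, fell from 3.20 to 1.56 CPM. Folr1, a folate receptor whose soluble form is a megalin ligand, rose from 23.3 ± 1.31 to 33.6 ± 0.044 CPM (SD, n = 3), which is 0.53 on the log2 scale. Amn, which Cubn needs to reach the surface, had between 0 and 2 counts in each library and was not tested.

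Cytoplasmic adaptors, which link receptor tails to the coat or to signalling, were all tested. Of the 14, 5 rose and 6 fell (median -0.09), beside 30.9% and 31.9% of all tested genes. Only 3 rose in 6 of 16 alternatives, which were library size as the only scaling, DESeq2, the threshold of 0.01 and leaving out 24 h replicate 1, 24 h replicate 3 or 48 h replicate 1. Dab2, the clathrin adaptor of megalin, stayed low at 2.83 ± 0.31 and 2.52 ± 0.25 CPM (SD, n = 3), a difference of -0.17 ± 0.16 on the log2 scale (standard error; adjusted p = 0.388). Dlg4, a scaffold of synapses, rose by 0.92 on the log2 scale to 3.79 CPM. Apbb1, which binds the amyloid precursor protein and receptor tails, fell from 17.01 to 11.9 CPM.

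Ligands moved in both directions, between -1.81 and 1.79 on the log2 scale. Of 16 listed, 13 were tested, 4 rose and 7 fell (median -0.38), beside 30.9% and 31.9% of all tested genes. Apoe, the apolipoprotein that most of these receptors bind, fell by 0.90 on the log2 scale (adjusted p = 3.04e-14), from 225.1 ± 3.21 to 120.8 ± 4.06 CPM (SD, n = 3). The protease inhibitor gene A2m fell from 36.2 to 10.4 CPM and Clu, a secreted chaperone carried by megalin, from 6.54 to 2.34 CPM. Reln, the reelin gene, went from 8 or 9 counts per library to between 21 and 36 (1.79 ± 0.33 on the log2 scale, standard error). It too passed the filter through its 48 h libraries alone and was not tested with at least 10 counts in every library. Its receptor gene Lrp8 was also higher, while Reln reached 1.42 CPM at 48 h. Thbs1, a matrix protein taken up by Lrp1, rose from 1.98 to 6.67 CPM.

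Genes that set receptor level or cut receptors all changed by less than 2-fold. Of 12 tested, 3 rose and 7 fell (median -0.15), beside 30.9% and 31.9% of all tested genes. Of 9 genes downstream of reelin and agrin, 7 were tested, with 1 higher and 5 lower (median -0.15). With 48 h replicate 3 left out or with RLE scaling 2 rose, and with library size as the only scaling 0 did. Rapsn, the synapse scaffold downstream of Lrp4, went from 1.34 to 0.548 CPM, having passed the filter through its 24 h libraries, and Musk, the kinase that works with Lrp4, was at 0 in all libraries.

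Most genes of the endocytic machinery fell slightly. Of 21 clathrin coat and vesicle genes, all tested, 15 fell and 2 rose (median -0.14), beside 31.9% and 30.9% of all tested genes. Only 1 rose in 14 of 16 alternatives, and 2 did with RLE scaling and without 48 h replicate 3. Dnajc6, the auxilin that strips clathrin from new vesicles, was the exception in size, with 105.3, 106.3 and 107.5 CPM at 24 h and 33.3, 32.8 and 34.2 CPM at 48 h. That is -1.67 ± 0.03 on the log2 scale (standard error; adjusted p = 2.94e-16). Of 20 endosomal sorting and recycling genes, 13 fell and 2 rose (median -0.14), beside 31.9% and 30.9% of all tested genes. The number that rose was 0 with DESeq2, at a threshold of 0.01 and on scaling by library size alone, and it was 1 when 24 h replicate 1 or 48 h replicate 2 was left out. Ehd3, Rab5b and Ccdc22 fell by 0.72, 0.67 and 0.55 on the log2 scale. Rab5b and Ccdc22 had fractional counts, which RSEM gives where it divides reads between genes. Of the genes named from the lists, Lrp3, Dab2, Reln, Thbs1, Rapsn and Ccdc22 also overlap exons of an opposite-strand gene.

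**Figure D5:**
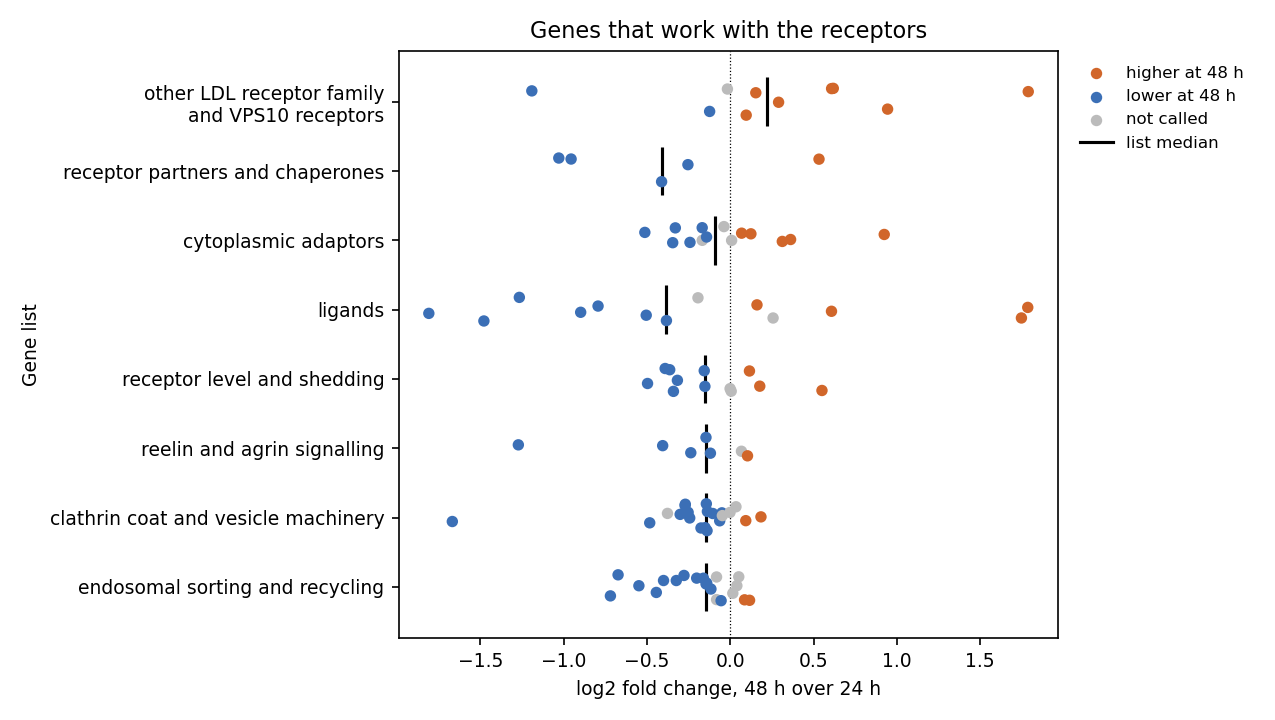
Fitted log2 fold change, 48 h over 24 h, of the 102 tested genes of the 8 lists (x axis, rows by list), coloured by call at an adjusted p under 0.05, with the list median as a black line. Other receptors have a median of 0.22, and the clathrin and endosome lists cluster near their medians of -0.14, with Dnajc6 apart at -1.67.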

How the data were processed

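Messenger RNA of 6 libraries was counted by the authors. The deposited table holds RSEM estimated counts per Ensembl gene, not scaled for depth or length, with 1 column per sample title and 0 other columns. The submitters' processing notes list cutadapt 1.9.1, STAR 2.5.2, RSEM 1.3.0 and the build GRCm38. The annotation, use of strand and filters are not given in the sources used here. Symbols came from GENCODE M21 (GRCm38), which matched 51633 of 51912 identifiers. Promoter sequences came from RefSeq (GRCm38.p6).

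The members and lists were chosen with earlier results of these data known. Counts were rounded, filtered with filterByExpr (minimum count 10), scaled by TMM and compared with edgeR's quasi-likelihood test (edgeR 4.0.16, R 4.3.3), group being the only term, two-sided, with Benjamini-Hochberg adjustment over all genes and a threshold of 0.05. The standard error is the fold change divided by the square root of F. The test was also run on simulated counts of 14621 genes, of which 200 were changed. It recovered 80.2% of genes whose log2 change was 0.5 or more and 50.7% of those with 0.25. Of its 149 calls, 11 were unchanged genes. In the real data 62.8% of tested genes were called, so these rates may not hold there. Named are all members, some fixed genes and, from each list, up to 4 called genes with the largest log2 fold change of at least 0.5 in size. Log2 CPM for the pattern search used a prior count of 2. Results of 2 listed genes are not reported here. Alternatives were other scalings and filters, DESeq2 1.42.0, limma 3.58.1 voom, unrounded counts, a replicate block, a threshold of 0.01, coding length, and leaving out each library.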

Additional observations from a re-analysis of the deposited data

How the results depend on the processing

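Over all genes the count of changed genes was between 7810 (threshold 0.01) and 9792 (no filter on low counts), against 9345. DESeq2, fitted on the same genes, called 4 members, 2 of them lower (Sorl1 and Lrp11), against 7 and 4. With library size as the only scaling 16 pathway genes were called higher, against 25. Lrp2, Lrp8, Lrp11 and Sorl1 kept direction and call in the 15 alternative fits of single genes, with log2 fold changes of 2.33 to 2.43, 0.45 to 0.57, -0.28 to -0.18 and -1.24 to -1.15. Cubn, not tested with at least 10 counts in every library, lost its call in 7 of 14. Lrp12 lost it in 4 and Lrp4 in 1 (DESeq2). Lrp10 gained it in 3 and Lrp1 in 1. Vldlr took the other sign when 24 h replicate 1 (0.037) or 48 h replicate 3 (0.013) was left out, as did Lrp5 in the latter case (0.012). The cause was not tested.

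With the replicate block 9235 genes were called, 6 members and 81 pathway genes, and Cubn lost its call (0.91). The deviations of libraries that share a replicate number had correlations across genes of -0.046, -0.043 and -0.0085, which gives no pairing. Cubn and Amn had few counts, and 11 of 113 pathway genes were too low for a test.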
